A study of Homo sapiens with 8 samples.

Results

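The collagen genes were taken as the GENCODE 44 protein-coding genes on chromosomes 1 to 22 and X whose symbol is COL, a number, A and a number, which gave 44 of 19970 genes. No measured value entered this choice. Open chromatin was read from peak lists of FAIRE-seq, in which DNA that formaldehyde does not lock to nucleosomes is recovered and sequenced, in U2OS, a human osteosarcoma cell line. The 8 libraries came from 4 clones, the wild types WT_4 and WT_5 and the ZBTB48 knockouts KO_C5 and KO_D2, and each clone gave 1 untreated library and 1 library treated with 250 U/ml IFNγ. ZBTB48 is a zinc finger protein that binds the hexamer TTAGGG and sets gene activity at a small group of promoters. The labels give 24 h of IFNγ and the study's text a longer time, so the duration is uncertain. Each genotype was represented by 2 clones of 1 cell line, so genotype and other differences between clones cannot be fully told apart. The lists held between 16730 and 37533 peaks, and sequencing depth itself is not given by a peak list.

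Collagens are triple-helical proteins of the extracellular matrix. Fibrillar collagens form the tensile fibres of bone, skin and cartilage, and type I collagen, made of the products of COL1A1 and COL1A2, is the main protein of bone matrix. Type IV collagens build the sheet of the basement membrane, type VI collagens form beaded filaments around cells, and FACIT collagens sit on the surface of fibrils. IFNγ is known to lower type I collagen synthesis in fibroblasts, where CIITA and RFX5 have been described at COL1A2. The type IV genes stand in head-to-head pairs, each pair with its start sites close together on opposite strands.

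The sequences shown here are those of the promoters that the results turn on. They are the 3 head-to-head type IV pairs, which were open in all, some and no libraries, and COL5A1, which had the strongest collagen promoter peak. COL6A2 is shown for its mean percentile difference between WT and KO clones, in which the WT_4 libraries were the highest. Each run is the stretch directly before the RefSeq start site (GRCh38.p14), read 5′ to 3′ on the strand of the named gene and trimmed to the longest stretch outside annotated UTRs. Capitals mark matches on either strand to the hexamer TTAGGG that ZBTB48 binds, to GTGAGT, the study's control hexamer, to the CCAAT box, to TATAAA for a TATA box, or to GGGCGG as the core of SP1 sites.
COL4A1: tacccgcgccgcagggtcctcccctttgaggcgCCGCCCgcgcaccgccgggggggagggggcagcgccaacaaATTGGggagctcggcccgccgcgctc
COL4A3: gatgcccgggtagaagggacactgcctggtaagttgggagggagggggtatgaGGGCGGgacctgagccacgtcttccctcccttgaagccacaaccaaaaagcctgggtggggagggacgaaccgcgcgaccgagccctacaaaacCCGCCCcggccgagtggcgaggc
COL4A5: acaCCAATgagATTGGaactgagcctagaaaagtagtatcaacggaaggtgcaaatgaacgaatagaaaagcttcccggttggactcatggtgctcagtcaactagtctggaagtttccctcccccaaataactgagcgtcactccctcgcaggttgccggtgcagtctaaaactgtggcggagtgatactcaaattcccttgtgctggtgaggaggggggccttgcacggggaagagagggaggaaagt
COL5A1: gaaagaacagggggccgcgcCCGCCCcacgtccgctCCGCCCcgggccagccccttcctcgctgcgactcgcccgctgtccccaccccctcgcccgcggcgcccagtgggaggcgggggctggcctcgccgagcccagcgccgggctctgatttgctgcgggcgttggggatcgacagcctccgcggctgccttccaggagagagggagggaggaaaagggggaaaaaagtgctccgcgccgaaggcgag
COL6A2: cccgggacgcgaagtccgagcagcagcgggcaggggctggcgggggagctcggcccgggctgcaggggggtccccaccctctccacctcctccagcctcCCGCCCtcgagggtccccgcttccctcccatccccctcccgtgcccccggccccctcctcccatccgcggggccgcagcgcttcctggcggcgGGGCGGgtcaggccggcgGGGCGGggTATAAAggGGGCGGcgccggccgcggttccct

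The COL4A1 run is chr13:110307158-110307257 on the minus strand, with 78% G or C, 1 CCAAT match and 1 GGGCGG match. The COL4A3 run is chr2:227164454-227164623 on the plus strand, with 65.9% G or C and 2 GGGCGG matches. The COL4A5 run, chrX:108439588-108439837 on the plus strand, has 51.2% G or C and 2 CCAAT matches. The COL5A1 run, chr9:134641553-134641802 on the plus strand, has 74% G or C and 2 GGGCGG matches. The COL6A2 run, chr21:46097862-46098111 on the plus strand, has 79.6% G or C, 1 TATAAA match and 4 GGGCGG matches. None of these runs holds TTAGGG or the control hexamer, which says only that those letters are not in these windows. Among 15315 RefSeq promoters, GGGCGG occurs in the last 100 bases before the start of 43.5%, in the last 170 bases of 52.2% and in the last 250 bases of 56.7%. CCAAT occurs in the last 100 bases of 21.3% and the last 250 bases of 34.8%, and TATAAA in the last 250 bases of 9.24%. TTAGGG occurs in the last 250 bases of 7.84% and GTGAGT of 8.51%. The RefSeq table matched 32 of the 44 collagen genes (72.7%), under the 80% required here, so a comparison of base composition or motifs over the whole family was void.

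Promoter peaks were considered first. A collagen gene was given a promoter peak in a library when a peak overlapped the 1 kb either side of any of its annotated start sites. Of the 44 genes, 14 had a promoter peak in all 8 libraries (31.8%, against 52.1% of protein-coding genes) and 14 in no library (31.8%, against 26.2%). The other 16 (36.4%) had one in 1 to 7 libraries, a range that held 21.7% of protein-coding genes. Among those 16, 7 had a peak in 1 library only. No collagen promoter had a peak in every WT and no KO library (0.225% of all genes), in every KO and no WT library (0.0%), in every IFNγ and no untreated library (0.02%), or in every untreated and no IFNγ library (0.0%). 

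Each peak was also given the percentile of its −log10 p among all peaks of its own list, where 50 is the middle of the list. The lists differ in length, and added weak peaks raise the percentile of the other peaks. A percentile is therefore not strictly comparable between libraries. Where a promoter had several peaks in a library, the strongest one by −log10 p is described. Fold enrichment is the authors' ratio of fragments at the summit to the local background, with a small constant added to both. Values per library are listed in a fixed order, untreated WT_4, WT_5, KO_C5 and KO_D2, and then the same 4 clones after IFNγ. Over the 14 genes with a peak in all libraries, the median percentile in a library lay between 29.4 and 61.9, while that of the 10395 protein-coding genes with a peak in all libraries lay between 70.1 and 86.4. In every library the collagen median was the lower one. The median over all these genes was 70.1 in the shortest list (untreated KO_D2) and 86.4 in the longest (IFNγ-treated WT_5).

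**Figure D1:**
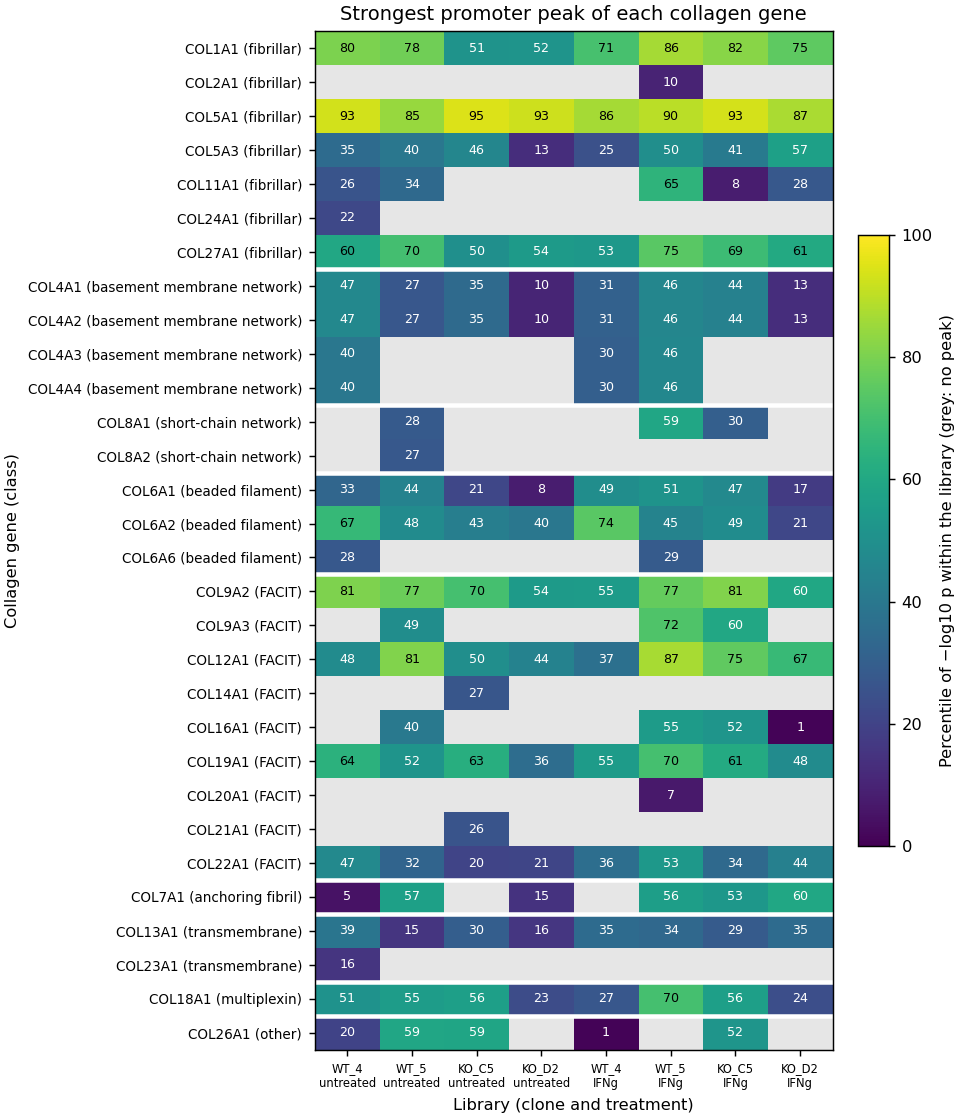
Percentile of −log10 p of the strongest promoter peak (colour and number, 0 to 100) for each collagen gene with a peak in at least 1 library (rows, by class) in each of the 8 libraries (columns, clone and treatment), with grey where no peak was listed. COL5A1 is at 84.6 or above in every library, and the COL4A3 and COL4A4 row pair is filled in 3 WT libraries and in no KO library.

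Of the 11 fibrillar genes, 4 had a promoter peak in all libraries (COL1A1, COL5A1, COL5A3 and COL27A1), 3 in some and 4 in none (COL1A2, COL3A1, COL5A2 and COL11A2). COL5A1, whose product starts fibrils and limits their diameter, had the strongest promoter peak of the family, with a mean percentile of 90.2 ± 3.74 (SD, n = 8 libraries). It was at percentile 93.1, 84.6, 94.6 and 92.6 untreated and at 86.5, 89.6, 93.5 and 87.4 after IFNγ. Its fold enrichment was 89.3, 35.7, 58.7 and 45.4 untreated and 43.5, 57.9, 49.97 and 28.9 after IFNγ. The fold thus moved over a wide range while the percentile stayed in a narrow one, and WT and KO libraries overlapped on both scales. The summit lay 119 to 160 bp before the canonical start at chr9:134641803, inside the COL5A1 run printed above.

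COL1A1 (ENSG00000108821.14, chr17:50184101-50201632, minus strand), the gene of the alpha 1 chain of type I collagen, followed with a mean percentile of 72.0 ± 13.5 (SD, n = 8). The percentiles were 80.2, 78.2, 51.2 and 51.8 untreated and 70.8, 86.4, 82.3 and 75.1 after IFNγ. The untreated KO clones were the lowest of the 8 libraries, whereas after IFNγ the KO clones lay within the range of the WT clones. The fold enrichment was 42.3, 23.1, 10.8 and 12.3 untreated and 22.2, 42.9, 27.3 and 16.3 after IFNγ. Summits lay 692 to 725 bp after the canonical start in 5 libraries and 1258 to 1268 bp after it in IFNγ-treated WT_5, KO_C5 and KO_D2. The peak also lay within 1 kb of a start of ENSG00000249406. In contrast, COL1A2, which encodes the partner chain of type I collagen, had no promoter peak in any library. The peak nearest to a COL1A2 start was 20.4 kb away in the nearest library, and the median over libraries was 82.3 kb.

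COL3A1, the gene of the type III collagen of vessel walls and skin, had no promoter peak either, and its nearest peak was at least 88.2 kb away in every library. COL2A1, the main collagen gene of cartilage, had a promoter peak in IFNγ-treated WT_5 only, at percentile 9.98 and with a fold enrichment of 4.52. Its summit lay 26042 bp after the canonical start and 989 bp from the nearest annotated one, at the edge of the window. COL27A1, expressed in developing cartilage, had a peak in each library, with percentiles of 60.1, 70.0003, 49.9 and 54.5 untreated and 53.2, 74.5, 68.7 and 60.8 after IFNγ. Its summits lay 47 to 115 bp before the canonical start. The percentiles of WT and KO clones overlapped, as did those of both treatments.

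The remaining fibrillar genes varied more. COL5A3 was present in all libraries at percentiles of 13.1 to 56.7, with summits 936 to 1113 bp after the canonical start, so the strongest peak reached only the far part of the window. In IFNγ-treated WT_5 a weaker peak (percentile 17.1) also covered a start. COL11A1, a partner of type II collagen in cartilage fibrils, had a peak in 5 libraries (3 WT, 2 KO), at percentiles between 8.19 and 64.9. It was absent from both untreated KO libraries and from IFNγ-treated WT_4. COL24A1 had a peak in untreated WT_4 only, at percentile 21.9.

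The 6 basement membrane genes followed their pairing. COL4A1 and COL4A2, which encode the ubiquitous type IV chains, shared 1 peak that was present in all libraries. Its percentiles were 46.9, 27.2, 34.8 and 10.4 untreated and 30.9, 45.9, 43.9 and 13.0 after IFNγ, with both libraries of KO_D2 the lowest. The summits lay 38 to 109 bp before the COL4A1 start, within or next to the COL4A1 run printed above. COL4A3 and COL4A4, which encode chains of the kidney filter, also shared 1 peak, listed in untreated WT_4 (percentile 39.6) and in IFNγ-treated WT_4 (30.1) and WT_5 (46.3). It was in 3 of 4 WT and in 0 of 4 KO libraries, a pattern held by 0.561% of all genes, while its mirror image (3 of 4 KO and no WT library) was held by 0.0%. The list of untreated WT_5, the longest untreated one, lacked it. The summits lay at the COL4A4 start, 420 to 446 bp before that of COL4A3 and so beyond the COL4A3 run printed above. COL4A5 and COL4A6, the pair on the X chromosome, had no promoter peak in any library, and their nearest peaks were at least 42.8 and 71.7 kb away.

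The excess of WT-side patterns among all genes went together with a background that differed by genotype. The local background, solved from each peak's fold and −log10 p, had a median over all peaks of 1.01 to 1.55 fragments in the WT lists and 1.83 to 3.05 in the KO lists. At the COL4A3 and COL4A4 peak it was 0.643 to 0.861 fragments in the WT libraries, and its value in KO libraries without the peak is not known from a list. The part of this background in the COL4A3 and COL4A4 pattern was not tested.

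Of the 5 beaded filament genes, COL6A1 and COL6A2 had a promoter peak in all libraries, COL6A6 in 2 WT libraries (percentiles 27.7 and 28.8) and COL6A3 and COL6A5 in none. COL6A1 and COL6A2 lie near each other on chromosome 21 and encode chains that assemble into 1 monomer. COL6A1 was at percentile 32.9, 44.5, 21.2 and 7.92 untreated and at 49.2, 51.2, 47.2 and 17.2 after IFNγ, and it was higher after IFNγ in each of the 4 clones. COL6A2 was at percentile 66.9, 48.1, 42.8 and 39.8 untreated and at 74.3, 44.5, 48.7 and 21.1 after IFNγ, with the WT_4 libraries the highest. These genes had the widest difference between WT and KO clones of the 14, 21.0 percentile points for COL6A1 and 20.3 for COL6A2. That difference gave an exact permutation p of 0.333 for each, the smallest that 4 clones allow (6 assignments, two-sided), and an adjusted p of 1 over 10395 genes. For COL6A2 the percentiles of WT_5 (48.1 and 44.5) lay close to those of KO_C5 (42.8 and 48.7). On normalised log2 fold enrichment, fitted as described below, WT minus KO was 0.04 ± 0.36 for COL6A1 and 0.24 ± 0.56 for COL6A2 (SE, limma, adjusted p = 0.99 and 0.94).

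The 10 FACIT genes were split between 4 with a promoter peak in all libraries (COL9A2, COL12A1, COL19A1 and COL22A1), 5 in some and 1, COL9A1, in none. COL9A2, a type IX chain of cartilage, had percentiles of 80.7, 77.4, 70.5 and 54.5 untreated and 54.9, 76.5, 81.2 and 59.6 after IFNγ. Its summits ranged from 506 to 1860 bp after the canonical start. COL12A1, which binds type I collagen fibrils, was at 48.1, 81.1, 49.5 and 44.4 untreated and at 37.0, 86.8, 75.4 and 67.3 after IFNγ, with the WT_5 libraries the highest and the WT_4 libraries among the lowest. The COL19A1 peak (percentiles 35.7 to 70.4) lay 902 to 969 bp after the canonical start and also within 1 kb of a start of LMBRD1, so it cannot be assigned to either gene. COL22A1, a collagen of tissue junctions, was at percentiles of 20.5 to 53.4.

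COL9A3, a type IX chain, and COL8A1, a collagen of vessel and eye membranes, were seen in the same 3 libraries, untreated WT_5 and IFNγ-treated WT_5 and KO_C5. Percentiles were 48.9, 72.4 and 59.8 for COL9A3 and 28.4, 59.1 and 30.3 for COL8A1. These were the 3 longest lists of the 8. COL16A1 was listed in 4 libraries, with the strongest peak at 3 separate places. IFNγ-treated WT_5 and KO_C5 each had a further peak that covered an annotated start, at percentiles of 47.4 and 3.25. COL14A1 and COL21A1 had a peak in untreated KO_C5 only, at percentiles of 26.8 and 25.8 and far from their canonical starts. COL20A1 had one in IFNγ-treated WT_5 only (percentile 6.72), and COL8A2, the partner of COL8A1, in untreated WT_5 only (27.4), with the summit 25440 bp after the canonical start and 467 bp from the nearest annotated one. COL10A1, the marker of hypertrophic cartilage, had none.

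Among the other classes, COL13A1, a transmembrane collagen of the neuromuscular junction, had the lowest mean percentile of the 14 constant genes, 29.1 ± 8.85 (SD, n = 8). It was at 38.7, 15.4, 30.1 and 15.9 untreated and at 35.1, 33.9, 28.7 and 35.1 after IFNγ. Its strongest peak was at the canonical start in 5 libraries and 864 to 882 bp after it in 3. COL23A1 had a peak in untreated WT_4 only, and COL17A1 and COL25A1 in none. For COL18A1, the gene of endostatin's precursor, all libraries listed a peak, between percentiles 23.2 and 70.5. In each library the strongest peak lay at an internal start, 50325 to 50353 bp after the canonical one. Whether a weaker peak covered the canonical start is not given by the strongest peak. Its multiplexin partner COL15A1 had no promoter peak.

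COL7A1, which encodes the anchoring fibril of skin, was listed in 6 libraries. In 4 of them the strongest peak lay 31128 to 31155 bp into the gene (percentiles 52.9 to 59.5), 791 to 818 bp from the nearest annotated COL7A1 start and within 1 kb of a start of UCN2. In 3 of these 4 another peak lay nearer to a start, 160 to 319 bp away, at percentiles of 18.5 to 54.5. In untreated WT_4 and KO_D2 the strongest peak lay near the canonical start, at percentiles of 4.72 and 14.8. COL26A1 was listed in 5 libraries. In IFNγ-treated and untreated WT_4 its summits lay 75 and 212 bp after the canonical start, at percentiles of 1.13 and 20.2. In untreated WT_5 and both libraries of KO_C5 a second peak began 761 to 940 bp from a start (percentiles 52.0 to 59.1), just inside the window, and in both libraries of KO_D2 and IFNγ-treated WT_5 that peak began 1058 to 1123 bp away (percentiles 32.9 to 74.3), just outside it. The WT_4 libraries had this second peak too, outside the window at percentiles of 56.1 untreated and 54.5 after IFNγ, so it was present in all 8 libraries. COL28A1 had no promoter peak. For COL14A1 the peak in untreated KO_C5 began 953 bp from a start, and in the other libraries the nearest peak, a different one, began 1193 to 1258 bp from a start.

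**Figure D2:**
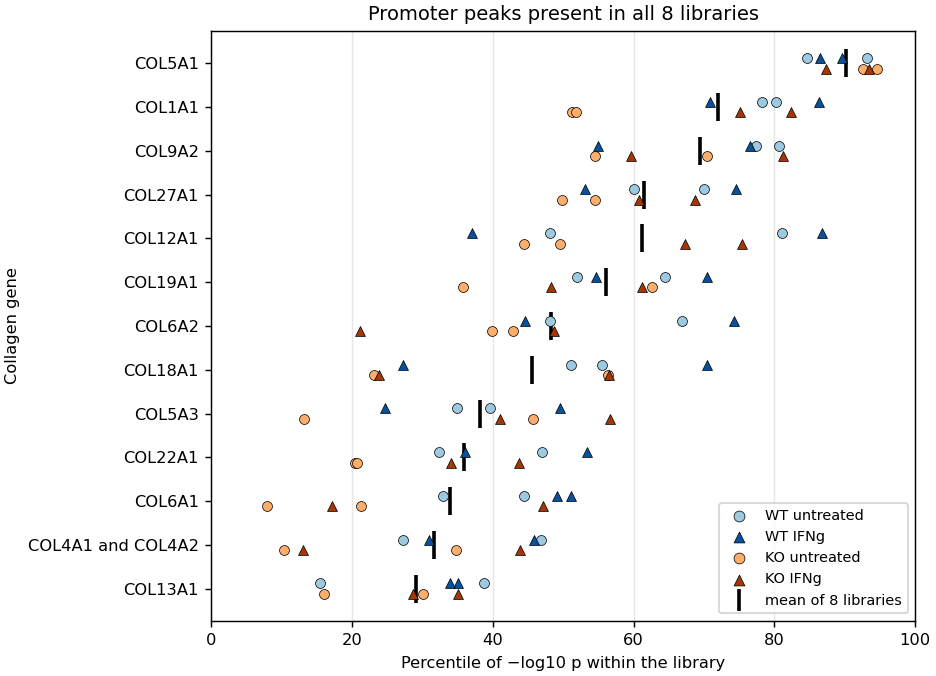
Percentile of −log10 p within the library (x axis, 0 to 100) of the promoter peaks present in all 8 libraries, 1 row per gene (COL4A1 and COL4A2, which share a peak, in 1 row), with circles for untreated and triangles for IFNγ libraries, blue for WT and orange for KO, and a bar at the mean of 8. The rows run from COL13A1 with a mean of 29.1 to COL5A1 with a mean of 90.2, and WT and KO symbols overlap in each row.

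WT and KO clones were then compared, the question being whether loss of ZBTB48 alters open chromatin at collagen promoters. A collagen promoter peak was listed for 22, 21, 17 and 15 genes in the untreated libraries and for 17, 24, 20 and 17 genes after IFNγ. The WT clones had 21 ± 2.12 such genes and the KO clones 17.25 ± 1.77 (mean of clone means ± SD, n = 2 clones), a difference of 3.75 genes. Of all protein-coding genes, 65.4% had a promoter peak in WT clones and 61.6% in KO clones, the same direction. Untreated libraries had 18.75 ± 3.30 and IFNγ-treated libraries 19.5 ± 3.32 (SD, n = 4 libraries each), which is within the spread, and the sign of that difference turned (-2.25 genes) at equal list length. When each list was cut to its 16730 strongest peaks, the counts became 18, 12, 17, 15, 16, 11, 16 and 10 and the difference became -0.25 genes. The libraries of WT_5, which had the longest lists, lost the most collagen promoters.

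**Figure D3:**
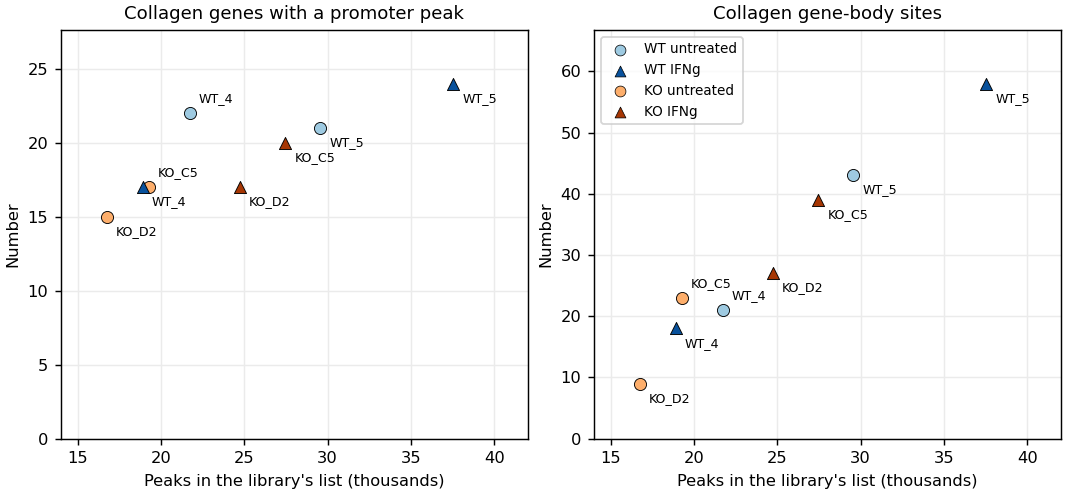
Number of collagen genes with a promoter peak (left) and of collagen gene-body sites (right) in each library (points, labelled by clone, circles untreated, triangles IFNγ) against the number of peaks in that library's list (axis in units of 1000). Gene-body sites run from 9 in the list of 16730 peaks to 58 in the list of 37533.

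For the strength of promoter peaks, log2 fold enrichment was quantile normalised between libraries and fitted with limma over all 10395 genes with a promoter peak in each library, with the mean per clone as the unit for genotype. No gene passed an adjusted p of 0.05 (0.0% of genes), 765 had an unadjusted p under 0.05, and 0 of the 14 collagen genes were among them. The collagen log2 differences of WT minus KO lay between -0.61 (COL5A3) and 0.41 (COL1A1), with a median of -0.01 beside 0.01 for all genes. The 95% intervals reached 0.578 to 1.30 log2 units to either side of the estimate. In simulated data of this size, 42% of genotype changes of 1 log2 unit were recovered. The simulation drew the 2 libraries of a clone independently, whereas in the data they deviated together (correlation 0.74 for WT, 0.41 for KO). The share recovered in the data may therefore be lower. For COL5A3 the difference was -0.61 ± 0.33 (SE, limma, adjusted p = 0.71), and for COL1A1 it was 0.41 ± 0.31 (SE, adjusted p = 0.77).

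Without normalisation, 397 genes passed, all higher in WT, and 0 collagen genes were among them. COL1A1 had the largest shift, 0.99 ± 0.47 (SE, limma, adjusted p = 0.17). On this unnormalised scale the log2 fold of the 14 genes was higher in WT by a median of 0.44. Of the 14, 13 were above 0, as were 92.2% of all genes, whose median was 0.57. The solved local background at the same collagen peaks differed (WT minus KO) by a median of -0.89 log2 units. That difference was below 0 for 14 of 14. Over all genes its median was -0.95, with 4.09% above 0. The summit pileup differed by -0.09, and by -0.03 for all genes. The part of the background in the unnormalised fold was not tested further. By percentile, the 14 genes were higher in WT by a median of 9.77 points (12 of 14 above 0). The median over all 10395 genes was 3.50 points (78.1% above 0). These medians start from different heights in the lists, so their sizes are not directly comparable. No collagen gene was higher in every WT than in every KO library (6.78% of genes) or the reverse (0.298%).

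IFNγ was compared next, the question being whether treatment opens or closes collagen promoters. In the fit over all 8 libraries no gene passed (0.0%), 220 genes had an unadjusted p under 0.05, and 0 of the 14 collagen genes were among them. Collagen log2 differences of IFNγ minus untreated lay between -0.39 (COL9A2) and 0.41 (COL1A1), with a median of -0.04 beside -0.05 for all genes. The intervals reached 0.451 to 1.11 log2 units to either side. COL1A1 had the smallest p of the 14, with a difference of 0.41 ± 0.23 (SE, limma, adjusted p = 0.96). In WT_5, KO_C5 and KO_D2 the strongest COL1A1 summit lay at different places untreated and after IFNγ, so this estimate compares different summits there. With the clone as a block, which pairs each clone's untreated and IFNγ library, 2 of 10395 genes passed and 0 collagen genes.

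**Figure D4:**
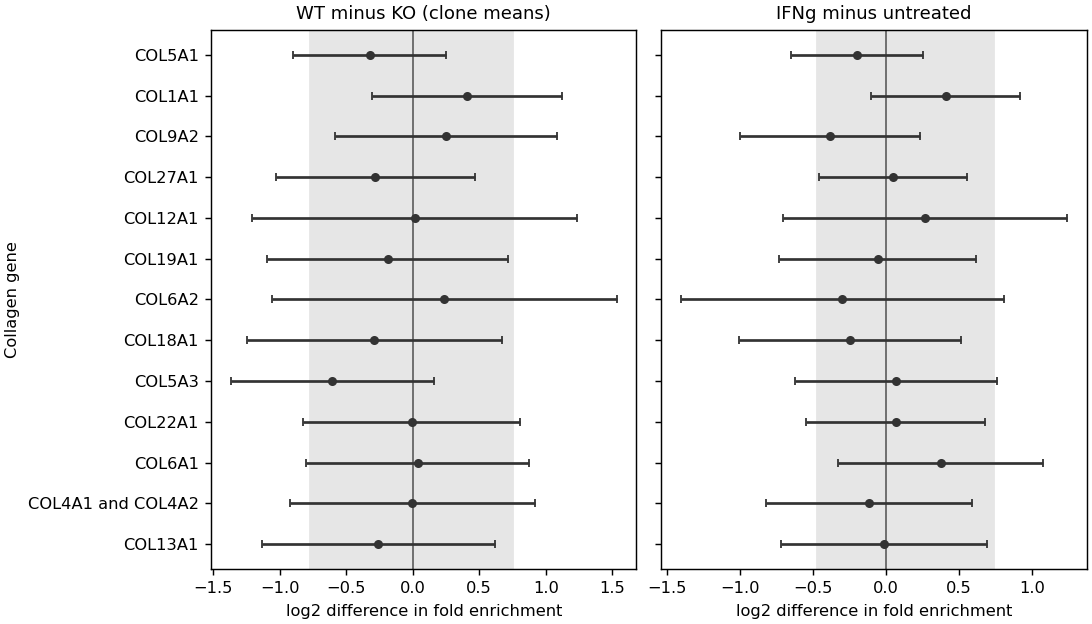
Difference in quantile-normalised log2 fold enrichment (x axis) of WT minus KO clone means (left) and IFNγ minus untreated (right) for the collagen genes with a promoter peak in all libraries, with points at the limma estimate, bars for the 95% interval, and grey for the range that holds the middle 95% of all 10395 genes. Every bar crosses 0.

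By percentile, the 14 genes were higher after IFNγ by a median of 5.33 points (10 of 14 above 0). The median over all genes was 2.25 points (73.1% above 0). Here too the medians start from different heights in the lists, so their sizes are not directly comparable. No collagen gene was higher in every IFNγ than in every untreated library (0.885% of genes) or lower in every one (0.0673%). The largest differences were 14.6 points for COL6A1 (exact permutation p = 0.229 over 70 assignments) and 13.3 points for COL1A1 (exact p = 0.257), with an adjusted p of 1.00 for each. That test treats the 8 libraries as unpaired. With each clone's pair of libraries kept together (exact paired permutation, 16 assignments, chosen after the data were seen), p was 0.125 for COL6A1, which was higher after IFNγ in 4 of 4 clones, the smallest that 4 clones allow (adjusted p = 0.69). Of all genes, 16.4% were higher in all 4 clones. For COL1A1 the paired exact p was 0.375, and its percentile differences compare different summits in WT_5, KO_C5 and KO_D2.

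The clones did not move alike. After IFNγ the percentile was lower in WT_4 for 12 of the 14 genes and higher in WT_5 for 12, in KO_C5 for 10 and in KO_D2 for 12. Of all 10395 genes, 67.6% were lower in WT_4, and 77.6%, 65.1% and 82.3% were higher in WT_5, KO_C5 and KO_D2. For COL1A1 the percentile changed after IFNγ by -9.36 in WT_4, 8.21 in WT_5, 31.1 in KO_C5 and 23.3 in KO_D2. In WT_5, KO_C5 and KO_D2 the strongest COL1A1 summit lay 702 to 719 bp after the canonical start untreated. With IFNγ it lay 1258 to 1268 bp after that start. These changes and the COL1A1 interaction estimate below therefore compare different summits. COL12A1 changed by -11.1, 5.72, 25.9 and 22.9. Both were among 7 of the 14 genes that were lower in WT_4 and higher in the other 3 clones, a pattern held by 29.1% of all genes. The difference of the IFNγ effect between genotypes was -0.69 ± 0.45 log2 units for COL1A1 and -0.48 ± 0.86 for COL12A1 (SE, limma interaction term, adjusted p = 1.00 each), and 0 of 10395 genes passed that test (0.0%), with 92 at an unadjusted p under 0.05. The lists also changed in length with treatment. That of WT_4 became shorter, from 21715 to 18913 peaks. The other lists became longer, from 29567 to 37533 in WT_5, from 19255 to 27457 in KO_C5 and from 16730 to 24727 in KO_D2. The part of list length in these percentile changes was not tested.

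Sites inside the collagen genes were then taken apart from the promoters. Peaks that overlapped a gene body but no promoter window were joined across libraries into 106 sites in 29 genes, and 15 genes had none. All but 1 lay away from the start of any other gene. The summit of the strongest peak fell in an intron for 95 of these and in an exon for 10. The density was 1.58 sites per 100 kb, beside 1.29 for all protein-coding genes. Of the 106 sites, 56 (52.8%) were in 1 library, as were 52.8% of the 17724 sites of protein-coding genes. In all libraries there were 2 (1.89%, against 6.55%). None was present in all WT and no KO libraries (0.203% of all sites), in all KO and no WT libraries (0.0169%), in all IFNγ and no untreated libraries (0.124%) or the reverse (0.00564%). Shares this small leave less than 1 site among 106, so the counts of 0 are no result about collagen genes.

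The sites were weaker than the promoter peaks. The median percentile of gene-body sites was between 20.0 and 32.1 in a library and that of promoter peaks between 23.2 and 54.2, and the promoter median was the higher one in 7 of 8 libraries. The number of sites per library was 21, 43, 23 and 9 untreated and 18, 58, 39 and 27 after IFNγ. The WT clones had 35 ± 21.9 sites and the KO clones 24.5 ± 9.19 (SD, n = 2 clones), and by treatment there were 35.5 ± 17.3 after IFNγ and 24 ± 14.1 untreated (SD, n = 4 each). Both differences were smaller than the spread. Collagen sites made up 0.364% to 0.655% of all gene-body sites of a library, and the ranges of WT and KO overlapped.

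The site shared by all libraries with the higher percentile lay in an intron of COL15A1, 31.2 kb after the canonical start, a gene without a promoter peak. It spans chr9:98974938-98975309 (GRCh38). Its percentiles were 59.8, 67.2, 48.7 and 44.2 untreated and 57.7, 76.4, 61.6 and 54.1 after IFNγ. The untreated KO clones were the lowest of the 8, and over both treatments the WT and KO values overlapped. The 201 bases around its summit, chr9:98975030-98975230 on the plus strand, are given because they are the most regularly open collagen sequence outside a promoter, and they hold none of the motifs named above.
COL15A1 intron: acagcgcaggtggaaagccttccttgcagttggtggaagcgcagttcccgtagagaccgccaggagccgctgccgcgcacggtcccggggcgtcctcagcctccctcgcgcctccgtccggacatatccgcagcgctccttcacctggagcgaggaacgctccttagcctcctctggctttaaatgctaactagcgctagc

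COL18A1, the other multiplexin, had 11 sites, as many as COL22A1 and more than any other collagen gene. The strongest of them, in an intron 34.4 kb after the canonical start, was in all libraries but untreated KO_D2, at percentiles of 40.2 to 71.0. COL4A2 had 8 sites, 1 of them in 7 libraries at 13.0 kb after the start, and COL5A1 and COL14A1 had 7 each. The second site present in all libraries belonged to COL14A1, a FACIT collagen of tendon and skin, and lay at -1381 bp from its canonical start, inside the span of a longer transcript. Its percentiles were 45.1, 68.6, 31.8 and 23.2 untreated and 46.0, 71.6, 65.9 and 54.6 after IFNγ. Both KO clones were higher after IFNγ than before, by a larger step than the WT clones. The lists of KO_C5, KO_D2 and WT_5 also became longer with IFNγ, and the part of list length in this step was not tested. How many other sites moved this way was not computed.

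**Figure D5:**
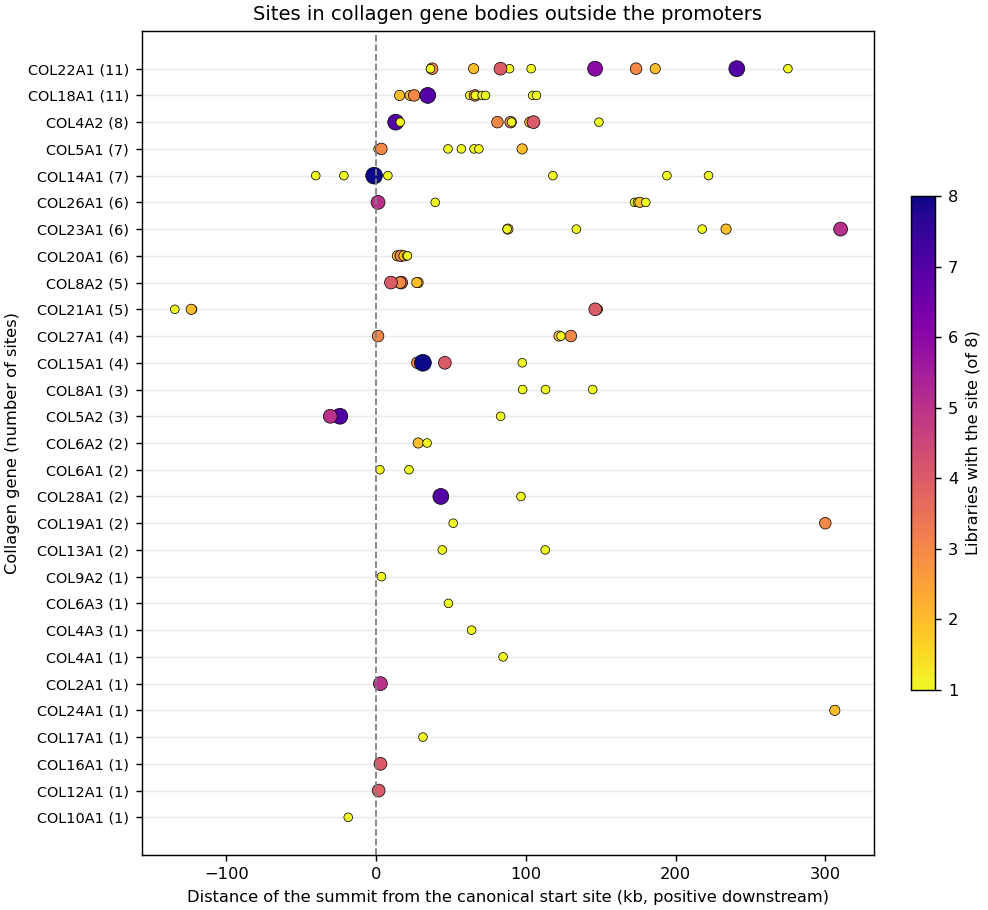
Distance of each gene-body site's summit from the canonical start of its gene in kb (x axis, positive downstream) for the 29 collagen genes with a site (rows, number of sites in brackets), with colour and size for the number of libraries that had it. Most symbols are the small yellow ones of a single library, and the darkest ones, in COL14A1 and COL15A1, mark the 2 sites seen in all libraries.

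Some sites were listed in both or neither library of each clone, and those seen in 2 clones are given here. The share of such sites among those of all protein-coding genes was not computed. A site in an intron of COL8A2, chr1:36115050-36115733, was listed in both libraries of WT_5 (percentiles 64.3 and 77.9) and both of KO_C5 (53.4 and 59.6) and in neither library of WT_4 or KO_D2. A COL21A1 intron site, chr6:56101077-56101460, had the same pattern at lower percentiles (8.51 to 52.3). Since each set holds 1 WT and 1 KO clone, these sites varied between clones within a genotype.

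Of the genes that modify, export, process and bind collagen, 47 were listed and 29 had a promoter peak in all libraries, 11 in some and 7 in none. Hydroxylases and glycosyltransferases, which modify the chains in the endoplasmic reticulum, were open in all libraries for 12 of 14 genes. The 5 chaperone and export genes, among them SERPINH1 (the collagen chaperone HSP47) and PPIB, were open in all. Of these, FKBP10 had the same percentiles (31.5 to 66.4) and folds as the hydroxylase-group gene P3H4, so both groups appear to count the same peak. P4HB, a subunit of prolyl 4-hydroxylase, was at a median percentile of 99.7 and PPIB at 99.6, above COL5A1. Of the 8 propeptide-processing genes 4 were open in all and 4 in some libraries, of the 5 crosslinking genes 3 and 2, and of the 9 receptors 4 and 2. Of the 6 collagenases only MMP2 was open in all libraries, MMP14 in 6, and MMP1, MMP8, MMP9 and MMP13 in none.

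The cell line was checked against its markers by promoter peaks alone. Of 10 osteoblast-lineage genes 3 (RUNX2, SP7 and MSX2) had a peak in all libraries, 4 in some and 3 (SPP1, IBSP and DLX5) in none. Of the leukocyte genes, SPI1 had a peak in IFNγ-treated WT_5 only, at a percentile of 5.99, and PTPRC, CD3E and CD79A had none. Of 4 epithelial and liver genes, EPCAM and KRT8 had a peak in all libraries and ALB in none, and of 5 mesenchymal genes VIM alone had one in all. ZBTB48 itself had a peak at its promoter in each library, at percentiles between 64.0 and 95.3, which does not check the knockout.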

How the data were processed

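FAIRE-seq peak lists of 8 libraries were used. The authors trimmed reads with Trimmomatic, aligned them to GRCh38 with Bowtie2 2.2.5, removed mapping qualities below 30 with SAMtools 1.14 and called peaks per library with MACS2 2.2.7.1. The lists predate the study's reproducibility step. The use of input as control and the treatment of duplicates are not given in the sources used here. The deposited fold enrichment is a ratio of summit to background, with the same small constant added to both. Each deposited peak also has a −log10 p-value and a −log10 q-value (lowest 1.30). The deposited score and summit offset are MACS2's, and the score was not used. Depth is not held in these lists, and no interval from counts was given.

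The collagen genes and all lists were chosen with earlier results of these data known. Peaks (195897) were matched to GENCODE 44 by an overlap of at least 1 bp. Genes named in full were COL1A1, COL1A2, COL2A1 and COL3A1, the 5 constant promoters with the highest mean percentile and the 2 with the lowest, genes open in some libraries, the 5 with most gene-body sites, and sites in all libraries. Summit pileup and local background were solved from fold and −log10 p by the Poisson formula of MACS, within 0.01 of −log10 p for 100% of peaks. Differences were fitted with limma 3.58.1 (R 4.3.3, trend, Benjamini-Hochberg adjustment over all genes, threshold 0.05) and single genes by two-sided exact permutation tests, whose smallest p was 0.333 for genotype and 0.0286 for IFNγ. Genes had to have a promoter peak in all lists to be fitted, so 30 collagen genes were not. Labels name the clone, so its 2 libraries form a pair, and deviations from the group means correlated within clones (0.74 for WT, 0.41 for KO). Across genotypes nothing but a number links clones. In simulated data for 10395 genes, 200 of them changed, 51.5% of changes of 1 log2 unit were recovered for IFNγ and 42% for genotype, and 100% of changes of 2 units for both. False calls among the unchanged genes were 8 for IFNγ and 10 for genotype at 1 unit, and 8 and 18 at 2 units. Libraries were simulated independently, without the correlation within clones, so the shares for genotype may be too high. Alternatives were fixed thresholds, window sizes, list lengths, start sites, no normalisation, pileup, blocks and the omission of each library. A window of 2 kb and the paired permutation test were added after the data were seen. Sequences came from RefSeq (GRCh38.p14) and, for the intron, from the GRCh38 genome. A leukocyte marker and a motif are not reported here.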

Additional observations from a re-analysis of the deposited data

Results flagged for a closer look

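In groups of 4 libraries, 4 of 64 had a library far from the other 3. Chance marks about 1 in 20 independent groups, and these groups share libraries and, for COL4A1 and COL4A2, a peak. Untreated WT_5 was at percentile 81.1 for the COL12A1 promoter, above the other untreated libraries (44.4 to 49.5). Untreated KO_D2 was at 23.2 for COL18A1, below the others (51.1 to 56.4). IFNγ-treated KO_D2 was at 17.2 for COL6A1, below the others (47.2 to 51.2). IFNγ-treated WT_4 was at 54.9 for COL9A2, below the other WT libraries (76.5 to 80.7).

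For COL9A2 both WT clones were lower and both KO clones higher after IFNγ. The percentile changed by -25.8 in WT_4, -0.886 in WT_5, 10.7 in KO_C5 and 5.09 in KO_D2, which is a WT minus KO difference of -21.3 points. In the limma interaction term on fold enrichment this difference was -0.56 ± 0.55 log2 units (SE, adjusted p = 1.00), so it was not past the threshold. In WT_5 the strongest summit lay 1845 bp after the canonical start untreated and 538 bp after it with IFNγ. The small change in WT_5 therefore compares different summits.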

How the results depend on the processing

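Of 190 recomputed values, 185 stayed within the replicate spread or within 1.5 times the main count. The 190 include the paired permutation test of each of the 14 constant collagen promoters. That test keeps the main value and has a smallest p of 0.125, so these entries could not move. With lists of equal length, 6 collagen genes in place of 14 had a promoter peak in all libraries and the WT minus KO difference in promoter counts went from 3.75 to -0.25. The gene-body difference of WT minus KO also changed sign there (10.5 to -2.25 sites), as did that of IFNγ minus untreated (11.5 to -0.25 sites) and that of IFNγ minus untreated in promoter counts (0.75 to -2.25 genes), all within the spread. Over protein-coding genes, calls for IFNγ went from 0 to 1 without normalisation and to 2 with the clone as a replicate block, and calls for genotype from 0 to 397 without normalisation and 0 with the replicate number as a block. The blocks changed no other call. No alternative called a collagen gene.

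When each library was left out in turn, 14 genes stayed in the count of all libraries and 14 to 16 in the count of none. The promoter difference ran from 2.5 to 5 genes for WT minus KO and from -0.75 to 1.83 for IFNγ. The gene-body difference ran from 6 to 15 sites for WT minus KO and from 4.33 to 17.8 for IFNγ, the median percentile difference from 4.86 to 13.7 points for WT minus KO and from 0.929 to 8.92 for IFNγ, and no gene was called in any of these fits. Peak lists hide sites just under the caller's threshold, so an absent peak is not a closed site, and 2 clones a genotype limit every comparison.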
